A study of Mus musculus with 18 samples.

Results

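Chemokine ligands are small secreted proteins that guide leukocytes along concentration gradients by engaging receptors on the leukocyte surface. They were followed here in mouse alveolar type II cells, the surfactant-producing cells of the lung, with and without deletion of Cebpa during exposure to hyperoxia. The genes were chosen by name: every array feature with a single symbol of the form Cxcl, Ccl with a number, Cx3cl1, Xcl1, Ppbp or Pf4 was taken, and the feature of highest mean over 18 arrays represented each symbol. This gave 36 chemokine ligand genes of 19938 genes tested. The naming rule used no genotype or time difference, but this set of genes was chosen with earlier results of these data known. Of the 36 genes, 21 lay in the upper 60 percent of all genes by mean level and 15 lay below it. All 36 stayed in the tests.

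The arrays held total RNA of type II cells isolated from mice 7-8 weeks old. Each of 6 groups had 3 arrays. The controls were littermates with both Cebpa alleles floxed, CEBP/a(flx/flx), that lacked either the rtTA or the Cre gene, and they were sampled at 0, 2 and 24 h of hyperoxia. The Cebpa-deleted mice, labelled CCSP/rtTA/CEBPa(flx/flx), were sampled at the same times. Both genotypes therefore carried the floxed alleles. In the deleted mice the Clara cell secretory protein (CCSP) promoter drove rtTA, and the design text places deletion in Clara cells from early gestation and in type II cells from near term. The deletion therefore preceded the exposure and was not restricted to the cells that were sampled. The sample descriptions name air for every array, whereas the times refer to hyperoxia in the design text. The labels do not say whether the 3 arrays of a group came from separate animals, so p-values measure the spread between these arrays, which may in part be technical.

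As background, CXC ligands with an ELR motif act through CXCR1 and CXCR2 and recruit neutrophils, whereas CXCL9, CXCL10 and CXCL11 act through CXCR3 on activated T cells and NK cells. CC ligands recruit mainly monocytes, eosinophils, dendritic cells and lymphocytes, and the homeostatic ligands CXCL12, CXCL13, CCL19 and CCL21 position cells in tissues and lymphoid organs. In the lung the alveolar epithelium itself secretes several of them, and many inflammatory chemokine genes are classic targets of NF-κB.

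Values are log2 expression after robust multi-array averaging (RMA), so a difference of 1 is a doubling. Genes were called at an adjusted p below 0.05 in limma, over all 19938 genes. Cebpa averaged 10.99 ± 0.05 (SD, n = 3) in controls and 10.56 ± 0.12 in deleted cells at 0 h, 10.52 ± 0.14 and 9.42 ± 0.52 at 2 h, and 10.27 ± 0.17 and 8.43 ± 0.20 at 24 h. The groups did not overlap at any time, and Cebpa was called lower at 2 and 24 h but not at 0 h (adjusted p 0.00461, 8.19e-06 and 0.429). Of 14 type II cell markers, 0 were called at 0 h, 1 was lower at 2 h and 13 were lower at 24 h, and the mean of the list ran from 12.89 to 12.93 in controls at 0 h and from 11.24 to 11.58 in deleted cells at 24 h. Over all genes 24.3% were called higher and 26.4% lower at 24 h. These shares depended on mean level, as given below, so this and each later marker list is also to be read against genes of like level. At 24 h the median difference of the type II markers was -0.71. For all genes it was -0.34 between a mean level of 10 and 12 and -0.23 above 12. In bulk RNA, fewer cells of a type and less RNA per cell cannot be told apart. The arrays also differed in range. The interquartile range over all genes was 3.01 ± 0.03 and 2.97 ± 0.09 in controls and deleted cells at 0 h, 2.25 ± 0.13 and 2.35 ± 0.20 at 2 h, and 2.47 ± 0.04 and 1.94 ± 0.16 at 24 h. Deleted cells at 24 h had the narrowest arrays, and there the median genotype difference over all genes of mean level below 6 was 0.26, whereas over genes between 8 and 10 it was -0.34. At 24 h the ranges ran from 2.44 to 2.52 in controls and from 1.82 to 2.13 in deleted cells, without overlap. Genotype and array range therefore cannot be told apart at that time.

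At 0 and 2 h the only chemokine ligand called between the genotypes was Cxcl12, which was higher in deleted cells at both times. This was 1 of 36 at 0 h, where 0.858% of all genes were called (0.677% higher and 0.181% lower), and 1 of 36 at 2 h, where 1.4% were called (1.2% higher and 0.206% lower). At 24 h, 15 chemokine ligands were higher and 3 lower in deleted cells, where 24.3% of all genes were called higher and 26.4% lower, 50.7% in all. Centring each array on its median changed the split to 12 higher and 3 lower of the 36, and the share of higher calls among all called genes from 48.0% to 37.3%. The median chemokine ligand difference was 0.08 at 0 h, 0.04 at 2 h and 0.31 at 24 h, against -0.00, -0.02 and 0.05 over all genes. The arrays of the genotypes did not overlap for 3 chemokine ligands higher and 2 lower at 0 h, against 8.49% and 8.77% of all genes (17.3% in all). At 2 h these were 3 and 2, against 6.95% and 5.56% (12.5%), and at 24 h 20 and 3, against 31.7% and 30.4% (62.1%). By gene, 18 chemokine ligands were called at none of the 3 times, 17 at 24 h alone, and Cxcl12 at all 3. With 1 array left out the count at 24 h was 12 without control replicate 1, 15 without control replicate 2 or 3, 12 without deleted replicate 1, 10 without deleted replicate 2 and 21 without deleted replicate 4.

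**Figure D1:**
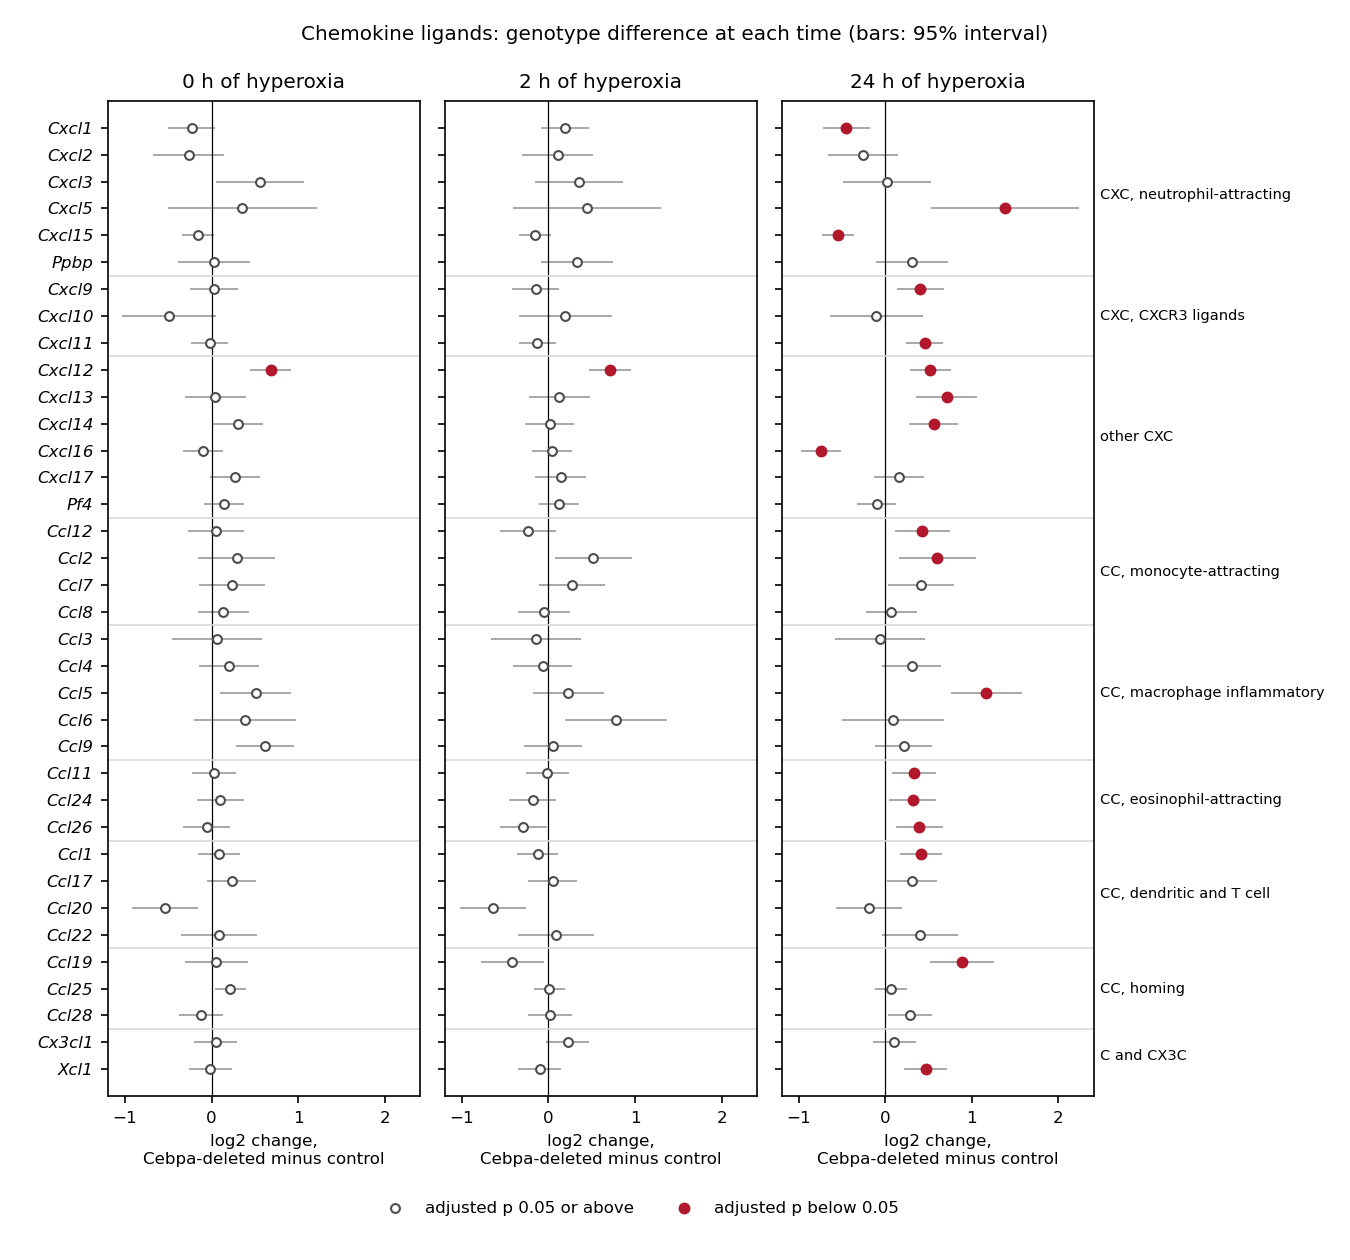
Genotype difference (log2, Cebpa-deleted minus control) of the 36 chemokine ligands at 0, 2 and 24 h, grouped by role; points are limma estimates with 95% intervals and filled points have an adjusted p below 0.05. Cxcl12 is filled at all 3 times, and 15 genes lie to the right and 3 to the left among the filled points at 24 h.

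Of the 6 neutrophil-attracting CXC ligands, Cxcl5 was higher in deleted cells at 24 h, Cxcl15 and Cxcl1 were lower, and Cxcl2, Cxcl3 and Ppbp were not called. None of the 6 was called at 0 or 2 h. Cxcl1, Cxcl2 and Cxcl3 (encoding the KC and MIP-2 family) and Cxcl15 (lungkine, made by lung epithelium) lie near one another on chromosome 5, and the 300 bases around each start site are shown because Cxcl1 and Cxcl15 were called lower at 24 h and Cxcl2 and Cxcl3 were not called; the difference between genes was not tested. The windows run from 250 bases before the start to 50 after it, 5′ to 3′, in RefSeq's GRCm38.p6 build, all on the plus strand: Cxcl1 at chr5:90890995-90891294, Cxcl2 at chr5:90903649-90903948, Cxcl3 at chr5:90785851-90786150 and Cxcl15 at chr5:90794284-90794583. Capitals mark matches to the NF-κB motif or to TATAAA.
Cxcl1: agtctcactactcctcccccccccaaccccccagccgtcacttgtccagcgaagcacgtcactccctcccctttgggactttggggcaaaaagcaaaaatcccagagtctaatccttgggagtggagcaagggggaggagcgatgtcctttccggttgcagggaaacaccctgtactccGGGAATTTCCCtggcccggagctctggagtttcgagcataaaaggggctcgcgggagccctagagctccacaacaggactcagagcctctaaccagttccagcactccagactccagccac
Cxcl2: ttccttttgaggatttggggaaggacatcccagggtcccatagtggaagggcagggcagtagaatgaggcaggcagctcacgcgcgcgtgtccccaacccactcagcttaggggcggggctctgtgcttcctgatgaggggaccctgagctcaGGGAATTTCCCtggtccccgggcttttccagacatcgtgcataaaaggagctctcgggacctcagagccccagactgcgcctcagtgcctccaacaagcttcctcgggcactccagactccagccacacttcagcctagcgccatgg
Cxcl3: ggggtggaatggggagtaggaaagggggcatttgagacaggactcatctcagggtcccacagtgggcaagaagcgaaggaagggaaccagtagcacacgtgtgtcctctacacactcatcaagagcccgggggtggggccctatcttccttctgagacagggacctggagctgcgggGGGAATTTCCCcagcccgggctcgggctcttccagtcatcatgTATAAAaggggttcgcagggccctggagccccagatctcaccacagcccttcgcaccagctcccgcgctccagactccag
Cxcl15: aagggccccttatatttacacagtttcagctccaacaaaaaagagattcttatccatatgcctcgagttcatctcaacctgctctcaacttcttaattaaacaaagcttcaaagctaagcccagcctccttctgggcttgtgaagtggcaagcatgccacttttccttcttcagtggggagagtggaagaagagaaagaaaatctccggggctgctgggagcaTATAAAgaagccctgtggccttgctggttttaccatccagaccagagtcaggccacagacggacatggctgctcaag

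The Cxcl1, Cxcl2 and Cxcl3 windows held the same NF-κB letters, GGGAATTTCC, starting at positions -71, -97 and -73 from the start site. A match on the opposite strand overlapped each by all but 1 base, so 11 letters are in capitals. Cxcl15 held no match to that motif and a TATAAA at position -27, and Cxcl3 held a TATAAA at position -30. Promoter windows were found for 25 of the 36 genes, 26 windows in all; Cxcl5, Cxcl11, Cxcl16, Cxcl17, Ccl2, Ccl4, Ccl5, Ccl7, Ccl11, Ccl24 and Ccl26 were not matched. On both strands, the NF-κB motif was in 7 of the 26 windows (26.9%) and in 8.46% of 32851 windows of the same length. TATAAA was in 10 (38.5%) against 13.6%. The C/EBP motif TTGCNNAA was in 2 (7.69%; Cxcl13 and Pf4) against 10.8%. A match says only that the letters are present.

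Cxcl5 (LIX), an ELR ligand that alveolar epithelium is known to secrete, had the largest positive genotype difference of the chemokine ligands. At 24 h it read 9.19, 7.41 and 8.84 in controls and 10.12, 9.66 and 9.81 in deleted cells. All 3 deleted arrays lay above all 3 controls, and control replicate 2 lay well below its group. The difference was 1.38 ± 0.41 (SE), 2.61-fold higher in deleted cells, with an adjusted p of 0.0109. Without control replicate 1 it was 1.74 and without control replicate 2 it was 0.85, where the call was lost (adjusted p 0.0739). At 0 h the values were 7.62, 7.34 and 7.21 against 7.41, 8.15 and 7.67, and at 2 h 8.56, 8.23 and 7.08 against 7.61, 8.96 and 8.64. The genotypes overlapped at both of these times.

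Cxcl15 fell after 0 h in both genotypes and was lower in deleted cells at 24 h. Controls read 14.31, 14.25 and 14.25 at 0 h, 13.48, 13.49 and 13.64 at 2 h, and 13.51, 13.56 and 13.44 at 24 h. Deleted cells read 14.15, 14.12 and 14.08, then 13.55, 13.36 and 13.24, then 12.92, 12.89 and 13.06. The highest value of any gene on an array ran from 14.53 to 14.62 at 0 h and from 13.70 to 13.88 at 2 and 24 h. Genes of mean level above 12 had a median change from 0 to 2 h of -0.51 in controls and -0.50 in deleted cells. The fall of Cxcl15 after 0 h therefore cannot be told apart from this change across the arrays. At 24 h every deleted array lay below every control, a difference of -0.55 ± 0.09 (1.46-fold lower, adjusted p 0.000316). After a second quantile normalization it was -0.17 and was not called (adjusted p 0.0691). Genes of mean level above 12 had a median difference of -0.23, and 13 of 14 type II markers were lower in the same arrays. Their part in the Cxcl15 difference was not tested.

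Cxcl1 read 9.17, 8.97 and 8.82 in controls and 8.60, 8.41 and 8.59 in deleted cells at 24 h, without overlap. The difference was -0.45 ± 0.13 (1.37-fold lower, adjusted p 0.00995), beside a median of -0.34 for genes between 8 and 10. The call was lost without control replicate 1 (-0.36, adjusted p 0.0561) and without deleted replicate 2 (-0.39, adjusted p 0.0522), and after the second quantile normalization (-0.11, adjusted p 0.567). At 2 h its difference had the other sign, 0.19 (adjusted p 0.676). Cxcl2 differed by -0.26 and Cxcl3 by 0.02 at 24 h (adjusted p 0.271 and 0.940). Ppbp, a platelet chemokine, differed by 0.31 (adjusted p 0.190), beside 1 of 6 platelet markers higher. Of 13 neutrophil markers, 0, 0 and 5 were higher and 0 lower at 0, 2 and 24 h, and the list mean at 24 h ran from 5.69 to 5.76 in controls and from 6.05 to 6.11 in deleted cells; its part in these values was not tested. The median difference of these markers at 24 h was 0.31, beside 0.26 for all genes of mean level below 6. After the second quantile normalization 2 of the 13 were called higher.

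**Figure D2:**
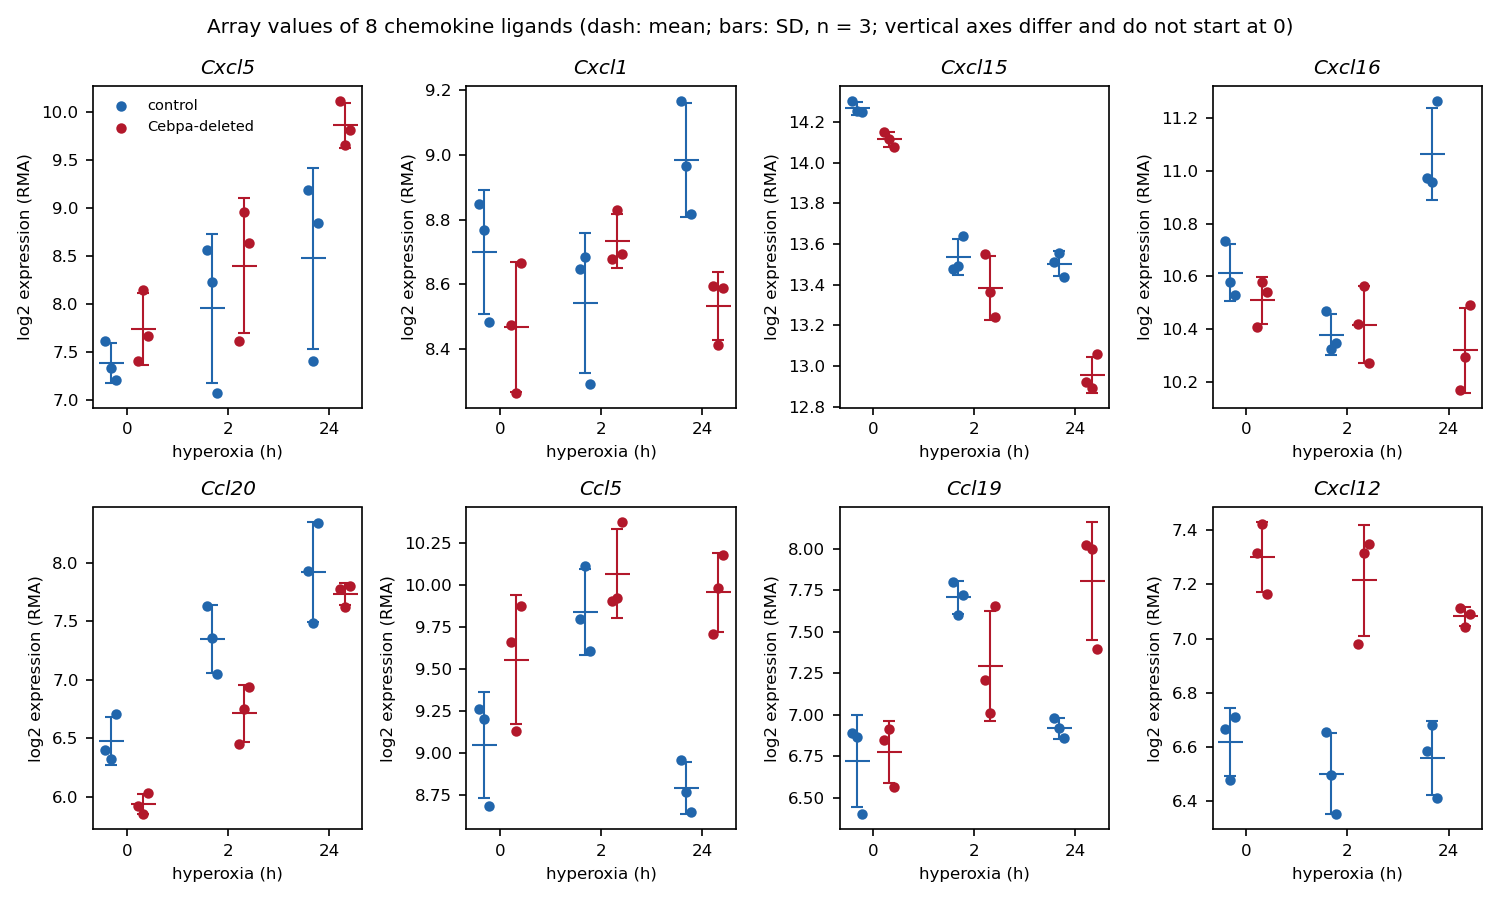
Log2 expression of 8 chemokine ligands in each array at 0, 2 and 24 h, with the group mean and SD (n = 3). Deleted arrays of Cxcl5, Ccl5 and Ccl19 lie above the controls at 24 h, those of Cxcl1, Cxcl15 and Cxcl16 lie below, and those of Cxcl12 lie above at all 3 times.

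Among the CXCR3 ligands, Cxcl9 and Cxcl11 were higher in deleted cells at 24 h and Cxcl10 was not called. Cxcl11 read 5.54, 5.71 and 5.66 in controls and 6.07, 6.03 and 6.19 in deleted cells, a difference of 0.46 ± 0.10 (adjusted p 0.00218). Cxcl9 read 5.73, 5.90 and 5.99 against 6.35, 6.37 and 6.11, a difference of 0.41 ± 0.13 (adjusted p 0.0169). Neither gene's arrays overlapped between the genotypes. The Cxcl9 call was lost without control replicate 1 (0.33) and without deleted replicate 1 (0.37) or 2 (0.36). After the second quantile normalization neither Cxcl11 (0.20, adjusted p 0.0967) nor Cxcl9 (0.17, adjusted p 0.231) was called, and with array interquartile range as a covariate Cxcl9 turned to -0.069. Cxcl11 has a mean level below 6 and Cxcl9 one between 6 and 8, where the medians over all genes were 0.26 and 0.11. Cxcl10, the interferon-inducible ligand IP-10, read 8.77, 8.97 and 9.05 against 8.93, 8.99 and 8.56, with overlap and a difference of -0.10 (adjusted p 0.745). Of 21 other interferon-response genes, 1, 3 and 6 were higher and 0 lower in deleted cells at 0, 2 and 24 h; the largest at 24 h were Gbp3 (0.96), Gbp4 (0.95) and Irf8 (0.81).

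Cxcl12 was the one chemokine ligand that differed at every time. It encodes SDF-1, the CXCR4 ligand, which stromal and endothelial cells are known to make. Controls read 6.67, 6.48 and 6.71 at 0 h and deleted cells 7.31, 7.42 and 7.16. At 2 h the values were 6.65, 6.50 and 6.35 against 6.98, 7.32 and 7.35, and at 24 h 6.59, 6.68 and 6.41 against 7.11, 7.04 and 7.09. No deleted array fell within the control range at any time. The differences were 0.68 ± 0.11, 0.71 ± 0.11 and 0.52 ± 0.11 (1.60, 1.64 and 1.43-fold; adjusted p 0.0104, 0.00446 and 0.00200). With 1 array left out, the call held in 4 of 6 fits at 0 h, 5 of 6 at 2 h and 6 of 6 at 24 h. The 0 h call was lost without control replicate 2 or deleted replicate 2, and the 2 h call without deleted replicate 3; the values there stayed between 0.61 and 0.83. After the second quantile normalization the 0 h difference was 0.52 and was not called (adjusted p 0.0963), and the value at 24 h was 0.28 and was not called (adjusted p 0.790) in a fit that included array range.

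Endothelial markers moved in the same arrays. Of 16, 9, 15 and 15 were higher in deleted cells at 0, 2 and 24 h, with medians of 0.94, 1.08 and 0.75, and 1, Esam, was lower at 24 h. The mean of the list ran from 8.19 to 8.47 in controls and from 9.20 to 9.47 in deleted cells at 0 h, from 8.06 to 8.36 and from 8.71 to 9.66 at 2 h, and from 8.18 to 8.83 and from 9.14 to 9.25 at 24 h. Tek and Cyyr1 differed by 1.15 and 1.22 at 24 h. RMA gives every gene a value and the files hold no detection calls, so no marker can be given as absent. The part of endothelial RNA in the Cxcl12 difference was not tested.

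Besides Cxcl12, Cxcl13 and Cxcl14 were higher and Cxcl16 was lower at 24 h among the remaining CXC ligands. Cxcl16, the transmembrane CXCR6 ligand that is shed by ADAM10, had the largest negative difference of the 36: controls read 10.97, 10.96 and 11.27 and deleted cells 10.17, 10.30 and 10.49. The difference was -0.75 ± 0.11 (1.68-fold lower, adjusted p 0.000165), with no overlap. At 2 h the arrays overlapped, 10.47, 10.32 and 10.35 against 10.42, 10.56 and 10.27 (difference 0.04, 95% interval -0.19 to 0.27). Controls then rose by 0.69 ± 0.11 from 2 to 24 h (adjusted p 0.000449), whereas deleted cells changed by -0.10, which was not called. The test of that difference in change gave -0.78 ± 0.16 (adjusted p 0.00510). The sheddases Adam10 and Adam17 were lower in deleted cells at 24 h as well (-0.37 and -0.65); across all genes between 10 and 12 the median difference was -0.34.

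Cxcl13, the CXCR5 ligand that organises B cell follicles, read 5.003, 5.42 and 5.22 in controls and 6.04, 5.98 and 5.74 in deleted cells at 24 h, a difference of 0.71 ± 0.17 (adjusted p 0.00340). Cxcl14, which is made by epithelium and stroma, read 6.02, 6.15 and 6.05 against 6.55, 6.71 and 6.62, a difference of 0.56 ± 0.14 (adjusted p 0.00385). Both were without overlap. B cell markers (0, 0 and 3 of 6 higher) and fibroblast markers (0, 1 and 10 of 16 higher) moved at the same times, with 0 lower in either list. At 24 h the fibroblast list mean ran from 6.90 to 7.36 in controls and from 7.62 to 7.70 in deleted cells, and the B cell mean from 6.20 to 6.48 and from 6.76 to 6.87. Their part was not tested. Cxcl17, a mucosal chemokine, and Pf4, the platelet ligand CXCL4, differed by 0.16 and -0.10 and were not called (adjusted p 0.339 and 0.447).

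Of the 4 monocyte-attracting CC ligands, Ccl2 and Ccl12 were higher at 24 h and Ccl7 and Ccl8 were not called. Ccl2 (MCP-1), the main CCR2 ligand, read 6.47, 6.94 and 6.59 in controls and 7.38, 7.44 and 6.98 in deleted cells. Its difference was 0.60 ± 0.21 (1.51-fold, adjusted p 0.0261), and the arrays did not overlap. Ccl12 (MCP-5) read 5.06, 5.19 and 5.31 against 5.66, 5.78 and 5.40, a difference of 0.43 ± 0.15 (adjusted p 0.0274). The call on Ccl2 was lost without control replicate 1 (0.50) or 3 (0.56) and without deleted replicate 1 (0.54) or 2 (0.51), and that on Ccl12 without control replicate 1 (0.37) or 2 (0.43) and without deleted replicate 1 (0.41) or 2 (0.35). With array range as a covariate Ccl2 turned to -0.13, and after the second quantile normalization Ccl12 was 0.17 and was not called (adjusted p 0.374). Ccl7 and Ccl8 differed by 0.41 and 0.07 (adjusted p 0.0654 and 0.686). At 2 h Ccl2 had a difference of 0.52 (adjusted p 0.344). Of 18 macrophage markers, 2, 1 and 4 were higher and 0, 0 and 2 lower at the 3 times, and the list mean at 24 h ran from 6.64 to 6.92 in controls and from 6.84 to 7.06 in deleted cells. After the second quantile normalization 3 of the 18 were higher and 0 lower at 24 h.

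Of the macrophage inflammatory group, Ccl5 was higher in deleted cells at 24 h and Ccl3, Ccl4, Ccl6 and Ccl9 were not called. Ccl5 (RANTES), a chemokine that T cells and NK cells make in quantity, read 8.96, 8.77 and 8.64 in controls and 9.71, 9.98 and 10.18 in deleted cells. Every deleted array lay above every control. The difference was 1.17 ± 0.20 (2.25-fold, adjusted p 0.000376), and it was called in all 6 fits with 1 array left out. At 0 h Ccl5 read 9.26, 9.20 and 8.68 against 9.66, 9.13 and 9.87, and at 2 h 9.80, 10.11 and 9.60 against 9.90, 9.92 and 10.37, with overlap at both. From 2 to 24 h it fell by 1.05 ± 0.20 in controls (adjusted p 0.00170), and in deleted cells it changed by -0.11, which was not called. The difference between these changes was 0.94 ± 0.28 (adjusted p 0.0213). It was not called without control replicate 2 at 2 h (0.80), deleted replicate 2 at 2 h (0.86) or deleted replicate 2 at 24 h (0.93).

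Lymphocyte markers followed the same times: 0, 0 and 10 of 17 were higher in deleted cells and 0 lower. Their list mean at 24 h ran from 6.32 to 6.78 in controls and from 7.01 to 7.30 in deleted cells, with Il7r (1.75) and Gzma (1.62) furthest apart. Their part in the Ccl5 difference was not tested. Ccl3 (MIP-1α) differed by -0.06 at 24 h, Ccl4 (MIP-1β) by 0.31, Ccl6 by 0.09 and Ccl9 by 0.21, with adjusted p between 0.123 and 0.837. At 0 h Ccl9 was higher in value in every deleted array, 7.56, 7.70 and 8.02 against 7.24, 7.35 and 6.85, but missed the threshold (difference 0.62 ± 0.16, adjusted p 0.0824).

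All 3 eosinophil-attracting CCR3 ligands were called higher at 24 h, each by a small amount. Ccl26 (eotaxin-3) read 6.09, 6.08 and 5.93 in controls and 6.49, 6.57 and 6.23 in deleted cells, a difference of 0.39 ± 0.13 (adjusted p 0.0194). Ccl11 (eotaxin-1) read 6.25, 6.36 and 6.32 against 6.72, 6.77 and 6.43, a difference of 0.33 ± 0.12 (adjusted p 0.0294). Ccl24 (eotaxin-2) read 5.65, 5.63 and 5.80 against 6.10, 6.25 and 5.68, with overlap and a difference of 0.32 ± 0.13 (adjusted p 0.0478). The calls on Ccl26, Ccl11 and Ccl24 were lost without deleted replicate 1 (0.36, 0.29 and 0.27) and without deleted replicate 2 (0.32, 0.27 and 0.20). They were also lost without control replicate 3 (0.34, 0.34 and 0.37), those on Ccl11 and Ccl24 without control replicate 1 (0.30 and 0.30), and that on Ccl24 without control replicate 2 (0.29). After the second quantile normalization none of the 3 was called: Ccl26 was 0.18 (adjusted p 0.219), Ccl11 0.16 (adjusted p 0.266) and Ccl24 0.07 (adjusted p 0.690). With array range as a covariate Ccl26 and Ccl24 turned to -0.10 and -0.11, and without the 2 narrowest deleted arrays Ccl24 was -0.012. Relative to the median of genes of like level, Ccl26 stood 0.13 higher, Ccl11 0.23 and Ccl24 0.06. Of 11 mast cell, basophil and eosinophil markers, 1, 1 and 7 were higher and 0 lower at the 3 times, with a list mean at 24 h from 5.45 to 5.55 in controls and from 5.84 to 6.03 in deleted cells. Their median difference at 24 h was 0.36, beside 0.26 for all genes of mean level below 6. After the second quantile normalization 2 of the 11 were called higher.

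Of the ligands for dendritic and T cells, Ccl1 was called at 24 h. Ccl1, a CCR8 ligand, read 6.04, 5.91 and 6.14 in controls and 6.45, 6.63 and 6.25 in deleted cells, a difference of 0.41 ± 0.11 (adjusted p 0.00740), which was not called without deleted replicate 2 (0.32, adjusted p 0.0524) or after the second quantile normalization (0.20, adjusted p 0.0986), and which turned to -0.078 with array range as a covariate. Ccl17 and Ccl22, the CCR4 ligands, differed by 0.31 and 0.40 with no overlap, but did not pass (adjusted p 0.0639 and 0.112). Ccl20, the CCR6 ligand that epithelium releases, was not called between the genotypes at any time. It read 6.40, 6.32 and 6.71 in controls against 5.92, 5.85 and 6.03 in deleted cells at 0 h, and 7.64, 7.36 and 7.05 against 6.45, 6.75 and 6.94 at 2 h. Deleted arrays lay below all controls at both times, with differences of -0.54 ± 0.18 and -0.63 ± 0.18, and neither passed over all genes (adjusted p 0.250 and 0.101). After a second quantile normalization the 2 h difference was -0.74 and was called (adjusted p 0.0430). At 24 h the arrays overlapped, 7.93, 7.49 and 8.34 against 7.78, 7.63 and 7.80.

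The Ccl20 promoter is shown because Ccl20 rose in both genotypes during the exposure. Its window, chr1:83116516-83116815 on the plus strand of GRCm38.p6, held 1 NF-κB match on the opposite strand, in capitals, from 80 to 71 bases before the start, and neither TATAAA nor TTGCNNAA.
Ccl20: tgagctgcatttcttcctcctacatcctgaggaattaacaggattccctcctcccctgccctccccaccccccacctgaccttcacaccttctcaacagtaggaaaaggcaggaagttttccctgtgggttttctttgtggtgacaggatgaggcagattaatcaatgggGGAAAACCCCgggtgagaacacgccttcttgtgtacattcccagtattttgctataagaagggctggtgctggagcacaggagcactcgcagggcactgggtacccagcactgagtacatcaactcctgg

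Of 10 dendritic cell markers, 0, 0 and 6 were higher and 0 lower at the 3 times. After the second quantile normalization 3 of the 10 were higher at 24 h. Their median difference at 24 h was 0.37, beside 0.26 for all genes of mean level below 6 and 0.11 for those between 6 and 8. At 24 h the list mean ran from 6.41 to 6.43 in controls and from 6.74 to 6.95 in deleted cells, and Ccr7, also counted with the receptors, differed by 1.05.

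Of the homing ligands, Ccl19 was higher in deleted cells at 24 h and Ccl25 and Ccl28 were not called. Ccl19, which with CCL21 guides CCR7-bearing dendritic cells and T cells to lymph nodes, read 6.98, 6.92 and 6.86 in controls and 8.02, 8.00 and 7.40 in deleted cells at 24 h. The arrays did not overlap. The difference was 0.89 ± 0.18 (1.85-fold, adjusted p 0.00106). At 2 h the mean was higher in controls, with overlap, 7.80, 7.60 and 7.72 against 7.21, 7.01 and 7.66 (difference -0.42, adjusted p 0.366). Between 2 and 24 h Ccl19 fell by 0.79 ± 0.18 in controls and rose by 0.51 ± 0.18 in deleted cells (adjusted p 0.00615 and 0.0343), and the test of the difference gave 1.30 ± 0.25 (adjusted p 0.00454). Ccl19 has 5 features on the array, 2 of them with identical values, and which of any near-identical gene copies they measured is uncertain; means of the 5 ran from 6.81 to 6.92 in controls and from 7.70 to 7.81 in deleted cells at 24 h. Ccl25 differed by 0.07 and Ccl28 by 0.29 (adjusted p 0.520 and 0.0565). At 0 h the 2 features of Ccl25 went opposite ways, from 6.62 to 6.84 and from 6.13 to 5.81, so no direction is given for it. Of 6 lymphatic markers, 0, 0 and 1 were higher at the 3 times, and 0 at 24 h after the second quantile normalization.

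Xcl1 (lymphotactin), the XCR1 ligand of T cells and NK cells, read 5.85, 5.87 and 5.68 in controls and 6.18, 6.42 and 6.21 in deleted cells at 24 h, a difference of 0.47 ± 0.12 (adjusted p 0.00482) with no overlap. After the second quantile normalization it was 0.23 and was not called (adjusted p 0.107). Cx3cl1 (fractalkine), a membrane-bound ligand of endothelium and epithelium, differed by 0.11 (adjusted p 0.456).

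Whether the genotype difference itself changed over the exposure was tested directly. From 2 to 24 h it shifted upward for 10 of the 36 and downward for 3, where 14.3% of all genes were called upward and 16.5% downward, 30.8% in all. The upward shifts were, with Ccl19 and Ccl5, those of Ccl26 (0.68 ± 0.18, adjusted p 0.0150), Ccl12 (0.66), Cxcl11 (0.59), Xcl1 (0.57), Cxcl9 (0.55), Cxcl14 (0.54), Ccl1 (0.54) and Ccl24 (0.50). The downward shifts were those of Cxcl16, Cxcl1 (-0.64 ± 0.18, adjusted p 0.0193) and Cxcl15 (-0.39 ± 0.13, adjusted p 0.0289). The shift depended on level. Over all genes its median was 0.33 below a mean of 6, where Ccl26, Ccl12, Cxcl11, Xcl1 and Ccl24 lie, and 0.06 between 6 and 8. It was -0.38 between 8 and 10, where Ccl5 and Cxcl1 lie, -0.35 between 10 and 12 (Cxcl16) and -0.23 above 12 (Cxcl15). From 0 to 24 h, 4 of 36 were called, where 5.46% of all genes were called upward and 8.88% downward, 14.3% in all: Ccl19 (0.83) and Cxcl11 (0.48) upward, Cxcl16 (-0.64) and Cxcl15 (-0.39) downward. With 1 array left out, Ccl19, Ccl26, Cxcl11 and Cxcl16 were called from 2 to 24 h in every fit, and the count lay between 4 and 15. From 0 to 24 h the count lay between 0 and 7. Of 12 such fits, Ccl19 was called in 3, Cxcl11 in 2, Cxcl15 in 1 and Cxcl16 in 9. Cxcl16 was not called without deleted replicate 2 at 0 h (-0.61) or deleted replicate 1 (-0.57) or 2 (-0.63) at 24 h. The shift of Cxcl5 was 1.03 from 0 to 24 h and 0.94 from 2 to 24 h, and neither was called (adjusted p 0.201 and 0.205).

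**Figure D3:**
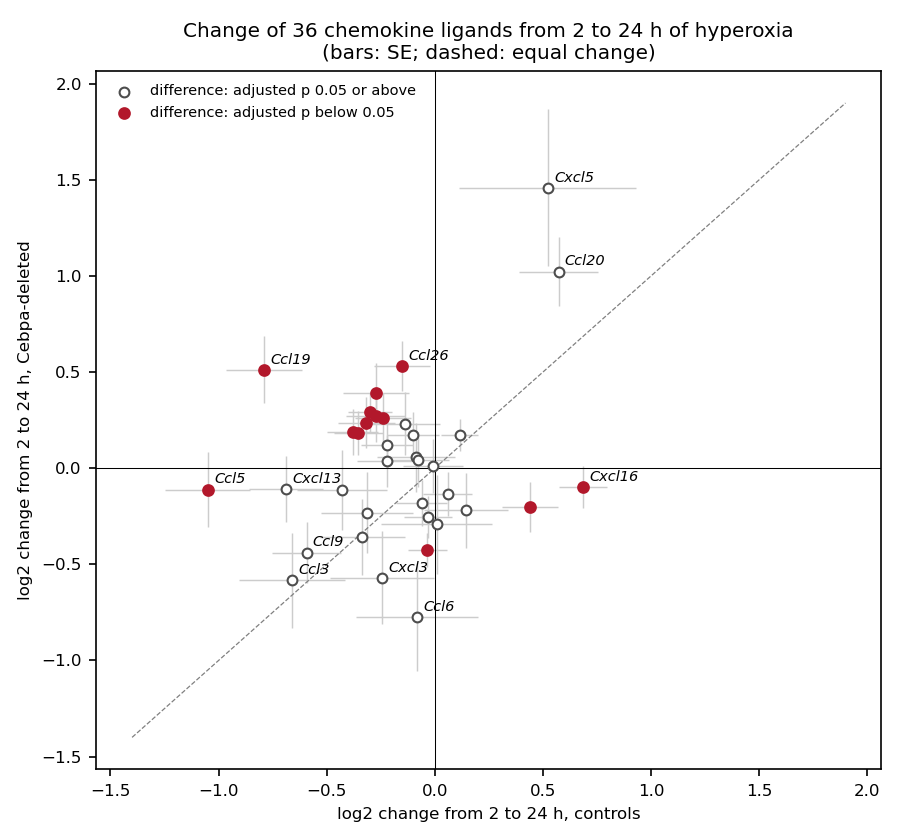
Change of each chemokine ligand from 2 to 24 h (log2, limma estimate with SE) in controls (horizontal) and Cebpa-deleted cells (vertical); filled points have an adjusted p below 0.05 for the difference of the 2 changes and the dashed line marks equal change. Ccl19, Ccl5 and Ccl26 lie above the line and Cxcl16 below it, while Ccl20 and Cxcl5 lie in the upper right.

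From 0 to 24 h, Ccl20, Cxcl5, Ccl26 and Ccl19 rose and Ccl3, Cxcl10 and Cxcl15 fell by more than 1 log2 unit in at least 1 genotype. In controls, 18 chemokine ligands were higher and 4 lower at 2 than at 0 h, where 30.7% of all genes were higher and 39.4% lower (70.1% called). At 24 h, 12 were higher and 5 lower than at 0 h, against 25.3% and 34.6% (59.9%). In deleted cells the counts were 16 and 3 at 2 h, against 26.9% and 36.2% (63.1%), and 16 and 7 at 24 h, against 36% and 41.5% (77.6%). The comparisons with 0 h share the 0 h arrays, and the arrays after 0 h all had narrower ranges, so time and array range cannot be told apart in them. From 2 to 24 h, where the ranges of the controls were closer, 3 rose and 6 fell in controls, against 7.97% and 4.46% of all genes (12.4%), and 5 rose and 3 fell in deleted cells, against 11.8% and 19.6% (31.4%).

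Ccl20 rose at each step. It gained 0.87 ± 0.18 from 0 to 2 h and 0.57 ± 0.18 from 2 to 24 h in controls (adjusted p 0.000396 and 0.0458), and 0.78 ± 0.18 and 1.02 ± 0.18 in deleted cells (adjusted p 0.00131 and 0.000850). In controls the 2 and 24 h arrays overlapped, 7.64, 7.36 and 7.05 against 7.93, 7.49 and 8.34. From 0 to 24 h the rise was 1.45 in controls and 1.80 in deleted cells, and no 24 h array of either genotype overlapped its 0 h arrays. Cxcl5 rose by 1.09 ± 0.41 in controls, with overlap, and by 2.12 ± 0.41 in deleted cells from 0 to 24 h (adjusted p 0.0284 and 0.000129). The control call was lost without control replicate 2 (1.07) or 3 (1.001) at 0 h and without control replicate 1 (0.74) or 3 (0.91) at 24 h. From 2 to 24 h Cxcl5 rose by 1.46 in deleted cells (adjusted p 0.0129), which was not called without deleted replicate 2 at 2 h (1.06) or deleted replicate 1 at 24 h (1.33).

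Ccl3, a macrophage product, read 10.14, 10.14 and 9.56 at 0 h and 8.86, 9.20 and 8.36 at 24 h in controls, and 9.70, 9.95 and 10.38 and then 8.23, 8.78 and 9.22 in deleted cells. It fell by 1.14 ± 0.25 and 1.27 ± 0.25 (adjusted p 0.000758 and 0.000141), with no overlap between the times in either genotype. Cxcl10 fell in controls from 9.87, 10.08 and 10.07 at 0 h to 9.17, 9.34 and 8.24 at 2 h and 8.77, 8.97 and 9.05 at 24 h, a change of -1.09 ± 0.26 at 2 h and -1.08 ± 0.26 at 24 h (adjusted p 0.00115 and 0.00159). In deleted cells its 0 h values were 8.80, 9.96 and 9.79 and its 24 h change was -0.69 ± 0.26 (adjusted p 0.0203), with overlap. Ccl3 and Cxcl10 have mean levels between 8 and 10. All genes of that level had a median change from 0 to 24 h of -0.38 in controls and -0.70 in deleted cells. From 0 to 2 h in controls their median change was -0.48. The Cxcl10 change in deleted cells was thus no larger than that median. Cxcl15 fell by 0.77 ± 0.09 and 1.16 ± 0.09 from 0 to 24 h. For genes above 12 the median change was -0.54 in controls and -0.69 in deleted cells. Ccl26 read 5.39, 5.02 and 5.01 in controls and 5.17, 5.10 and 4.99 in deleted cells at 0 h, below all later arrays. It rose by 1.05 at 2 h in controls and by 1.35 at 24 h in deleted cells, and Ccl19 by 0.99 and 1.03 in the same comparisons; genes below 6 had medians of 0.48 and 0.57 and those between 6 and 8 of -0.02 and 0.03.

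Because the 24 h shift depended on level, the chemokine ligands were read against genes of like mean level. Below a mean of 6, 6 of 9 were called higher and 0 lower, against 41.5% and 1.27% of all genes in that band. Between 6 and 8, 7 of 17 were higher and 0 lower, against 28.4% and 16.4%. The 8 genes between 8 and 10 held Cxcl5 and Ccl5, called higher in a band where 3.6% of genes were, and Cxcl1, called lower where 62.5% were. Cxcl16 and Cxcl15, alone in the bands of 10 to 12 and above 12, were lower where 63.3% and 48.2% of genes were. Relative to the median of its band, Cxcl5 stood 1.73 higher, Ccl5 1.51, Ccl19 0.78, Cxcl17 0.50, Ccl2 0.49, Cxcl14 0.45, Cxcl13 0.44, Ccl6 0.43 and Cxcl12 0.41. On the same scale Cxcl16 stood at -0.41, Cxcl15 at -0.32, Ccl20 at -0.29, Pf4 at -0.21, Ccl8 at -0.19 and Cxcl1 at -0.11. Ccl24 stood 0.06 higher and Ppbp 0.05.

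**Figure D4:**
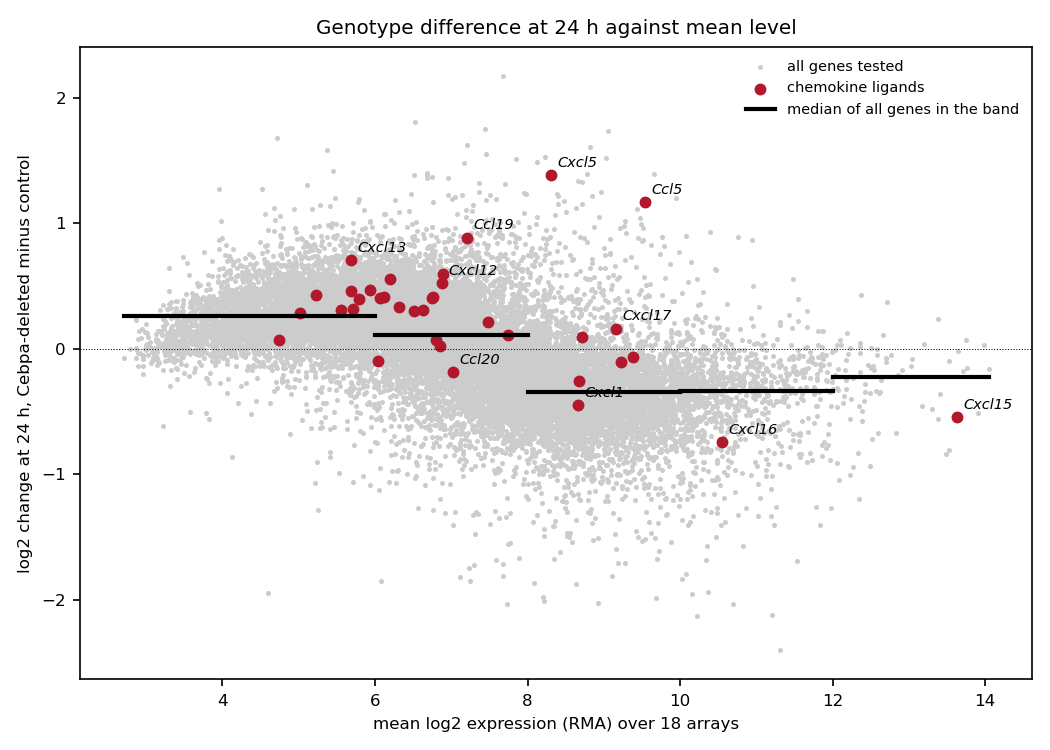
Genotype difference at 24 h (log2) against mean log2 expression over 18 arrays for all genes tested (grey) and the 36 chemokine ligands (red); black bars are the medians of all genes within bands bounded at 6, 8, 10 and 12. The medians pass from 0.26 at the left to -0.34 between 8 and 12, and Cxcl5 and Ccl5 lie 1.73 and 1.51 above theirs.

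Equalising the array distributions separated the called genes. After a second quantile normalization, Cxcl5 (1.76), Ccl5 (1.56), Ccl19 (1.12), Ccl2 (0.65), Cxcl12 (0.48), Cxcl13 (0.47), Cxcl14 (0.37) and Cxcl16 (-0.41) remained called at 24 h. Cxcl17 (0.52) and Pf4 (-0.38) were called there and not before. The other 10 were no longer called. With the 2 narrowest deleted arrays, replicates 1 and 2, left out, replicate 4 alone remained in that group. The differences of Ccl5 and Cxcl5 were then 1.39 and 1.33. With array range as a covariate 0 of 36 were called in limma, 4 had an unadjusted p under 0.05, and 0.0201% of all genes were called. At 24 h the ranges of the genotypes did not overlap. That fit therefore cannot tell genotype from array range at that time. In that fit Cxcl12 stayed called at 0 h and at 2 h (0.67 and 0.76; adjusted p 0.00603 and 0.00106).

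**Figure D5:**
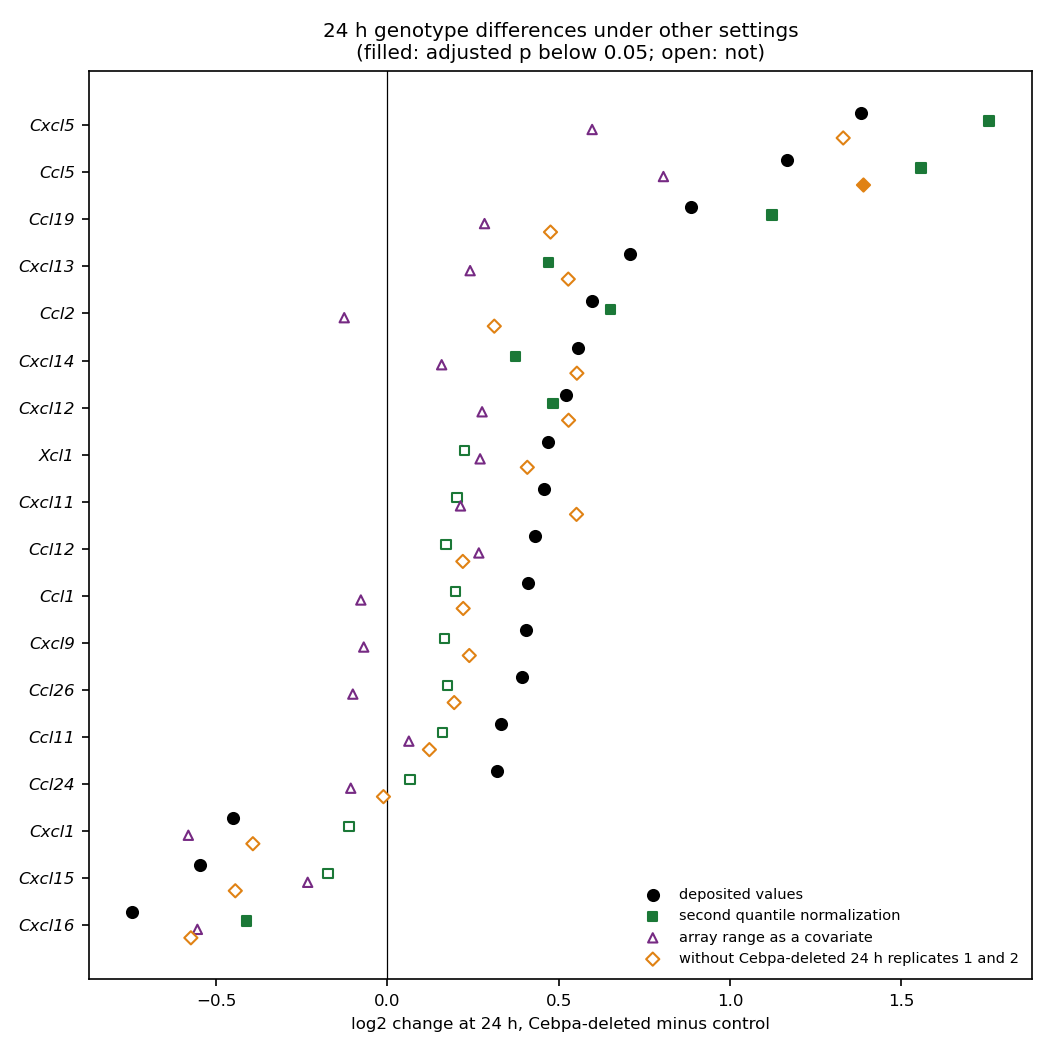
Genotype difference at 24 h (log2) of the 18 called chemokine ligands on the deposited values and under 3 other settings; filled symbols have an adjusted p below 0.05. The diamonds come from a fit that kept replicate 4 alone in the deleted group, so their fill is not read. The 8 filled squares are Cxcl5, Ccl5, Ccl19, Cxcl13, Ccl2, Cxcl14, Cxcl12 and Cxcl16, and all triangles are open.

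Of 22 chemokine receptors measured, 13 were higher and 0 lower in deleted cells at 24 h, where 24.3% of all genes were higher and 26.4% lower. The median receptor difference was 0.46, beside 0.26 for all genes of mean level below 6 and 0.11 for those between 6 and 8. At 0 and at 2 h 1, Ackr2, was higher. Ccr7, the receptor for CCL19, differed by 1.05 ± 0.27 (adjusted p 0.00500) and Cxcr4, the receptor for CXCL12, by 0.90 ± 0.22 (adjusted p 0.00373). Ackr4, a scavenger of CCL19 and CCL21, differed by 0.68, Ccr2 by 0.61, Cxcr1 by 0.58, Xcr1 by 0.55, Cxcr3 by 0.52 and Ackr2, a scavenger of inflammatory CC ligands, by 0.49. Ackr2 was also higher at 0 h (0.67 ± 0.15, adjusted p 0.0459) and at 2 h (0.64 ± 0.15, adjusted p 0.0424). Receptors are carried mainly by leukocytes, and markers of lymphocytes and dendritic cells were higher in the same arrays; their part was not tested. The count was 4 without deleted replicate 2, 8 without control replicate 3 and 8 (7 higher, 1 lower) after the second quantile normalization. No count is given with deleted replicates 1 and 2 both left out, since replicate 4 alone then remained in that group.

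The genes around chemokine control and handling split by list. Of 23 NF-κB response genes, 1 was higher at 0 h (Il1b, 0.68), 1 lower at 2 h (Il6, -1.02) and 10 lower with 0 higher at 24 h, with a median of -0.24. The list mean at 24 h ran from 8.73 to 8.77 in controls and from 8.43 to 8.57 in deleted cells. All genes of mean level between 8 and 10 had a median difference of -0.34 there, so the list as a whole was not lower than genes of like level. Il6 differed by -1.98, Ptgs2 by -0.74, Icam1 by -0.42 and Rela by -0.40. After the second quantile normalization 3 were higher and 3 lower, so the direction of the list depended on that step. Of 13 genes that process or bind chemokines, 4 were higher at 24 h, led by the neutrophil protease Ctsg (0.66) and the heparan sulfate enzyme Hs3st1 (0.56), and 6 were lower, led by Ext1 (-0.72), which builds heparan sulfate, and Sdc1 (-0.72), which carries it. Hs3st1 was also higher at 2 h (0.55). After the second quantile normalization 3 of these 13 genes were higher and 3 lower at 24 h. Of 8 club cell markers 4 were higher and of 9 type I cell markers 7 were lower at 24 h, with 0 called at 0 or 2 h in either list. After the second quantile normalization 5 club cell markers were higher and 2 type I cell markers lower at 24 h.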

How the data were processed

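The files held 1 table of log2 expression values for 18 arrays. The authors made these log2 values with RMA, per the submitters' processing notes; its version, and which arrays were normalized together, are not given in the sources used here. Of 35557 features, 21789 carried 1 gene symbol, 1621 several and 12147 none in the platform annotation, and 21698 were matched to RefSeq by Entrez number to update symbols. Where several features shared a symbol the one of highest mean was kept, which left 19938 genes. Groups were taken from the sample labels. A model with 1 mean for each of 6 groups was fitted to all genes with limma 3.58.1 in R 4.3.3 (lmFit and eBayes, default settings), and p-values were adjusted by Benjamini-Hochberg over all genes, with calls at an adjusted p below 0.05. No filter was set on low values, since the files hold no detection calls, and the number of arrays limits the precision. The procedure was tested on simulated data: at 0, 2 and 24 h it recovered 67%, 67% and 71% of 1.5-fold changes and 94%, 94% and 93% of 2-fold changes. It called 8, 7 and 6 unchanged genes. The simulated arrays had independent noise and equal ranges, and only a small set of genes was changed, all upward. The rates therefore do not cover the difference in array range at 24 h or the broad shift there. The chemokine ligands, the marker and pathway lists and the tests were chosen with earlier results of these data known. Values per array are given for genes called in a genotype or interaction comparison, or called with a change over time of at least 1 log2 unit. Receptors are named by largest called change up to 8, and genes of other lists up to 4. Replicate numbers in the titles were not used to pair the arrays. The correlation of deviations from the group means lay between -0.24 and 0.06 over 7 same-numbered pairs. That shows no strong shared deviation, but with so few arrays it cannot exclude that same-numbered arrays were related. Alternatives were a second quantile normalization, median centring, only the arrays compared, the upper 60 percent of genes, a 1.5-fold minimum, trend and robust variance settings, means over features, a replicate block, array interquartile range as a covariate, and each array left out. Added after the data were seen were fits without both narrowest deleted 24 h arrays and without the arrays at 0 h.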

Additional observations from a re-analysis of the deposited data

Results flagged for a closer look

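The genotype difference itself changed between times for 13 chemokine ligands, by a test of that change in limma. All 13 were called from 2 to 24 h, where 30.8% of all genes were, and 4 of them from 0 to 24 h, where 14.3% were. Between 2 and 24 h it moved up for Ccl19 (1.30), Ccl5 (0.94), Ccl26 (0.68), Ccl12 (0.66), Cxcl11 (0.59), Xcl1 (0.57), Cxcl9 (0.55), Ccl1 (0.54), Cxcl14 (0.54) and Ccl24 (0.50), and down for Cxcl16 (-0.78), Cxcl1 (-0.64) and Cxcl15 (-0.39). Between 0 and 24 h it moved up for Ccl19 (0.83) and Cxcl11 (0.48) and down for Cxcl16 (-0.64) and Cxcl15 (-0.39). Over all genes the median move from 2 to 24 h was 0.33 below a mean level of 6, 0.06 between 6 and 8 and -0.38 between 8 and 10. From 0 to 24 h these medians were 0.24, 0.07 and -0.33. Groups of 3 arrays are too small for a test that names a single array as outlying. The fits with 1 array left out show only whether a call depended on that array.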

How the results depend on the processing

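The number of chemokine ligands called in limma changed under several settings. After the second quantile normalization it was 0 at 0 h (5 at an unadjusted p under 0.05), 2 at 2 h and 10 at 24 h between genotypes, 5 from 2 to 24 h in controls, and 2 and 4 for the change of the genotype difference from 0 and from 2 to 24 h. With array interquartile range as a covariate it was 2 at 2 h and 0 at 24 h (4 at an unadjusted p under 0.05). That fit cannot tell genotype from array range at 24 h, where the ranges of the genotypes did not overlap. In that fit the time comparisons in controls gave 0 at 2 h (3), 6 at 24 h and 4 from 2 to 24 h, those in deleted cells 0 (2), 0 (3) and 0 (7), and the changes of the genotype difference 0 (2) and 0 (4), unadjusted counts in parentheses. Signs turned there at 24 h for Ccl1 (-0.078), Ccl2 (-0.13), Ccl24 (-0.11), Ccl26 (-0.10) and Cxcl9 (-0.069), for Ccl19 from 0 to 24 h in deleted cells (-0.15), and for the 2 to 24 h change of the genotype difference of Ccl1 (-0.051), Ccl24 (-0.010) and Cxcl9 (-0.017). Without both narrowest deleted 24 h arrays, chosen after seeing the data, replicate 4 alone remained in that group, so no counts are given. In that fit the 24 h difference of Ccl24 turned to -0.012. With only the arrays compared the counts were 0 (6) at 2 h between genotypes and 2 from 2 to 24 h in deleted cells. In the upper 60 percent of genes, which holds fewer of the 36, they were 8 at 24 h between genotypes, 9 and 9 at 2 and 24 h in controls, 9 and 11 in deleted cells, and 5 for the 2 to 24 h change of the genotype difference. With a 1.5-fold minimum they were 6 at 24 h between genotypes, 14, 10 and 5 in controls, 6 at 2 h and 3 from 2 to 24 h in deleted cells, and 2 and 7 for the changes of the genotype difference. With the replicate block, which the titles' numbers do not support as a pairing, those changes gave 0 (9) and 8, and every other count stayed within 1.5 times. With 1 array left out the counts ranged from 0 to 1, 0 to 2 and 10 to 21 between genotypes at 0, 2 and 24 h, from 19 to 21, 13 to 17 and 3 to 6 in controls, from 14 to 22, 22 to 26 and 3 to 11 in deleted cells, and from 0 to 7 and 4 to 15 for the changes of the genotype difference. The receptor count of 13 was 8 after quantile normalization and 4 to 15 with 1 array left out. Of the 52 single-gene results under all alternatives, 633 values kept direction and call, 244 lost the call and 10 turned. Apart from the construction of each alternative, the cause was not tested.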

Other observations

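Ccl21 and Ccl27 were measured by 4 and 3 features that each carry several symbols and were not among the 36 genes. Ccl21, which shares the receptor CCR7 with Ccl19, averaged 7.61 ± 0.14 (SD, n = 3) in controls and 7.56 ± 0.11 in deleted cells at 0 h, 8.77 ± 0.58 and 8.49 ± 0.68 at 2 h, and 8.37 ± 0.33 and 8.99 ± 0.03 at 24 h. Ccl27, a skin-homing ligand, averaged 7.90 ± 0.06 and 7.85 ± 0.04 at 0 h, 7.75 ± 0.06 and 7.65 ± 0.15 at 2 h, and 7.47 ± 0.07 and 7.87 ± 0.16 at 24 h. Which gene copies these features measured is uncertain.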
